A study of Mus musculus with 20 samples.

Results

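Solute carriers are membrane proteins that move sugars, amino acids, organic ions, metals, nucleosides and other small molecules across cell and organelle membranes. Their genes carry the symbols Slc and Slco in the mouse. In these data 63 of them were described, out of 4217 mouse genes with counts, in the livers of 20 mice. They were selected on their own abundance: a gene entered when the fragments assigned to it summed to 20 or more over all 20 libraries. Slc7a11, Slc16a12 and Slc25a15, with 1388, 1996 and 41032 counts, were set aside by name. The lowest genes that entered were Slc13a1 and Slc47a2 with 21 counts and Slc23a3 with 22, and the highest below the limit were Slc44a2 with 19, Slc27a6 with 17 and Slc22a2 with 16. The annotation holds 385 protein-coding solute carrier genes, of which 94 could be assigned counts and 86 had any, so most of the family was not measured. The limit is on the sum over all groups, and the family was picked with earlier results of these data known.

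The 4 groups of 5 individual mice were control mice without antibiotics (mice 6 to 10), control mice given antibiotics (ABX, mice 1 to 5), mice given anti-CD40 without antibiotics (mice 16 to 20) and mice given both (mice 11 to 15). CD40 is carried by B cells, dendritic cells and macrophages and belongs to the receptors of the tumour necrosis factor family, and anti-CD40 is an antibody that binds it. Not given in the sources used here are strain, sex, age, dose, schedule, the control treatment, the antibiotics and whether the antibody stimulates or blocks its receptor. Whole liver was sampled, so fewer cells of a type and less RNA per cell cannot be told apart.

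Hepatocytes take up organic anions, bile acids, nucleosides and amino acids from sinusoidal blood through solute carriers and pass organic cations into bile through others. Carriers of the SLC25 family lie mostly in the inner mitochondrial membrane and exchange metabolites with the cytosol, and those of the SLC35 family carry nucleotide sugars into the Golgi apparatus. Macrophages, endothelial cells and lymphocytes have carriers of their own, so the set measured in whole liver draws on several cell types.

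Levels are given as normalised counts per 1000000 fragments (CPM), in the order of mouse number within each group. The authors counted mouse alignments at the exon coordinates of a human annotation, and each deposited interval was assigned here to the mouse gene whose exons it covers, so a symbol stands for a part of its gene. The members were measured over 68 to 3018 bp of exon (median 400 bp, or 7.6% of the exon length). The counted intervals reach past those exons: the median share of an interval's bases over the member's exons was 11.2%, and the intervals of 17 members ran into the body of another gene. Fragments from introns and from such neighbours can therefore be among the counts, and levels are not compared between genes. Counted fragments per library ranged from 5053014 to 7618736, and the members held 9175 to 16378 of them, or 0.160% to 0.250%. With these numbers, 48 members passed the filter on low counts and were tested and 15 were not. Of the 48, 6 had under 10 counts in every library of at least 1 group: Slc4a8, Slc9a9, Slc13a5, Slc22a27, Slc38a11 and Slc43a1. They passed through the groups where they were higher, which limits what their folds and p-values can show.

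Some libraries stood apart. In control mouse 8, mitochondrial transcripts took 22.4% of counts, against 28.9% to 31.1% in the other control mice without ABX, and several members differed there too. The mitochondrial share also moved with treatment: it was 20.9% to 25.8% in the 10 anti-CD40 libraries and 28.9% to 35.1% in the 9 control libraries other than mouse 8. Intervals assigned to 1 mouse gene held 36.2% to 41.1% of counts under anti-CD40 and 51.8% to 54.9% in control mice. The part of either share in the carriers' changes was not tested. Control mouse 1 held 5 genes with at least 90% of their counts in that 1 library, among them the member Slc26a3, and no other library held any. The well positions in the labels put the groups in different plate columns: both control groups share column 3, control mice 9 and 10 share column 4 with mouse 16 and all anti-CD40 mice with ABX, and mice 17 to 20 fill column 5. Anti-CD40 with ABX and its controls share no column, so there column and treatment are separated only through the other groups, and whether column contributes was not tested beyond a fit that includes it.

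The sequences below are coding stretches, all bases of which lie in counted intervals, for carriers with some of the largest changes. They are given 5′ to 3′ on the gene's strand in mm10 and come from the GENCODE M21 transcripts. The first is from Slc2a6, the carrier with the largest rise, at chr2:27022719-27022851; the next are from the citrate carrier Slc13a5 at chr11:72250726-72250844, the bicarbonate carrier Slc4a8 at chr15:100784715-100784875 on the plus strand and the organic cation exporter Slc47a1 at chr11:61352662-61352794. The other stretches shown here lie on the minus strand. That of Slc13a5 is the whole exonic part measured for the gene, 119 bp.
Slc2a6: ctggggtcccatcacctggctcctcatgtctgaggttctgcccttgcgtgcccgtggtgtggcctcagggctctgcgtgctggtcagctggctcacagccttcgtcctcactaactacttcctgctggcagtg
Slc13a5: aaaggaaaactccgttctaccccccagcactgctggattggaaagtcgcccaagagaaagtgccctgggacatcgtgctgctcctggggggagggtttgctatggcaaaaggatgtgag
Slc4a8: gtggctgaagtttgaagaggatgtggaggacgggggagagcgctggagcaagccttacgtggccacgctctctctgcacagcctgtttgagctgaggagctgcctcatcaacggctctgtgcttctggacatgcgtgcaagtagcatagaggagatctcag
Slc47a1: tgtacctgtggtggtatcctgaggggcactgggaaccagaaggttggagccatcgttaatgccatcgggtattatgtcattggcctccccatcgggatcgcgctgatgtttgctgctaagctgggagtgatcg

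A second pair is shown because near-identical copies limit what the falls of Slc22a27 and Slc22a28 can say. Both lie in 1 cluster with Slc22a30 on chromosome 19. The stretch of Slc22a28 at chr19:8131554-8131776 lies within a 276-bp part that is 100% identical to Slc22a30, so a fragment from it fits both genes. The stretch of Slc22a27 at chr19:7879445-7879604 differs from Slc22a29 at 3 of its 160 bases, which are in capitals.
Slc22a28: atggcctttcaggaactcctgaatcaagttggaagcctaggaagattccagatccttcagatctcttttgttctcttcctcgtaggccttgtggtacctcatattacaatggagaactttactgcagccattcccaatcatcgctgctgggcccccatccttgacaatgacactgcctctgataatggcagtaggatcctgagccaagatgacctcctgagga
Slc22a27: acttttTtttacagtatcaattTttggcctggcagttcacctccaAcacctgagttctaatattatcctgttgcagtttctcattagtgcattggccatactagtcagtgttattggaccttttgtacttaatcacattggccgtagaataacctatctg

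After anti-CD40 the carriers moved in both directions. Slc2a6, a hexose transporter family member (GLUT6), rose the most, with a 79.1-fold higher level without ABX and a 52.2-fold higher level with ABX. The citrate carrier Slc13a5, the bicarbonate exchanger Slc4a8, the cationic amino acid exchanger Slc7a7 and the prostaglandin carrier Slco2a1 rose as well in both settings. The falls were led by the organic anion carriers Slc22a27, Slc22a28 and Slc22a30, the organic cation exporter Slc47a1, the sodium-proton exchanger Slc9a9 and the amino acid carrier relative Slc38a11. Slc29a1, which carries nucleosides, and Slc46a3, a lysosomal carrier, also fell in both. Of the carriers named here, Slc4a8, Slc13a5, Slc9a9, Slc22a27 and Slc38a11 passed the filter through the groups where they were higher.

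Of the 48 tested members, 13 rose and 19 fell without ABX (edgeR quasi-likelihood F-test, Benjamini-Hochberg adjustment over 2200 genes, two-sided, called at an adjusted p under 0.05). Among all 2200 genes tested, 31.8% were called higher and 28.8% lower in that comparison. With ABX, 14 members rose and 21 fell, against 26.6% higher and 24.9% lower among all genes. In each comparison the counts include the rises of Slc4a8, Slc13a5 and Slc43a1 and the falls of Slc9a9, Slc22a27 and Slc38a11. These passed the filter through the groups where they were higher, which limits what their calls can show. The members' median log2 fold change was -0.14 without ABX and -0.20 with ABX, beside 0.03 and 0.02 for all genes. Ranges of the 5 mice per group did not overlap for 22 of the 32 members called without ABX and for 29 of the 35 called with ABX. The matching count over all genes is not given here, so these numbers have no background to be read against. The same direction was called in both comparisons, which share no library, for 10 members that rose and 17 that fell (20.8% and 35.4% of the 48). Over all genes it was called for 475 that rose and 438 that fell, 21.6% and 19.9% of the 2200. No member was called in opposite directions, and 8 were called in neither. Among all 2200 genes, 8 were called in opposite directions and 655 in neither.

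**Figure D1:**
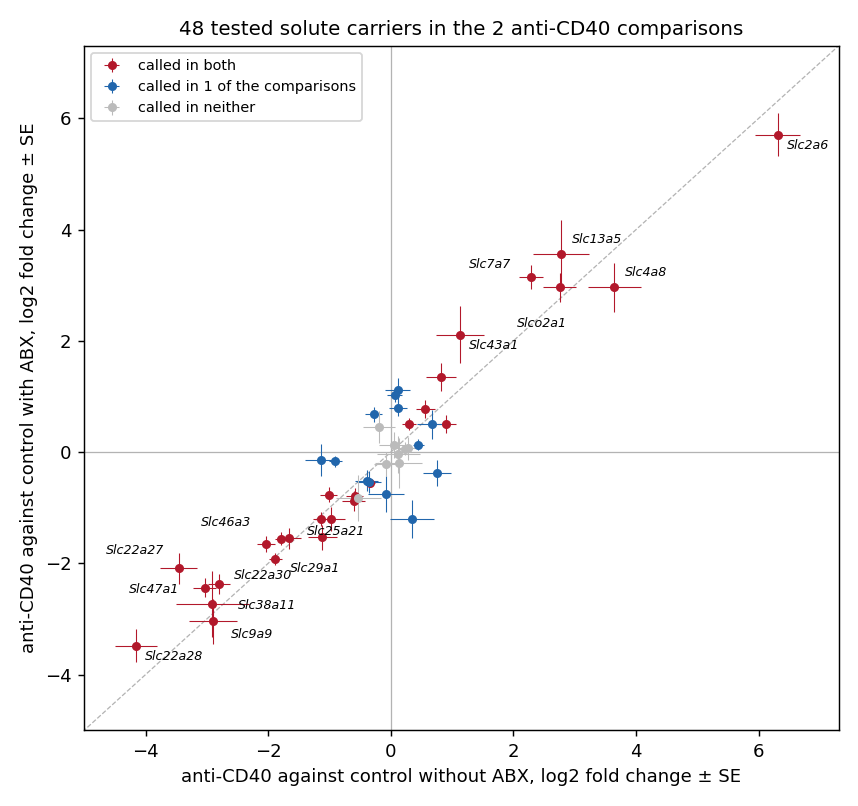
Log2 fold change of anti-CD40 against control without ABX (horizontal axis) and with ABX (vertical axis) for each of the 48 tested solute carriers, with bars of 1 SE and the line of equal change dashed. The 27 members called in both comparisons lie in the lower left and upper right quadrants, some of them near the origin. The outermost are Slc2a6 at 6.31 and 5.71 and Slc22a28 at -4.16 and -3.48.

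With plate column as a term, 6 members rose and 15 fell without ABX, and 11 rose and 17 fell with ABX. The number called over all genes also dropped under that term, as given in the last section. Its split by direction is not given here, so these member counts have no background to be read against. Scaling by library totals in place of TMM moved the median log2 fold change of all genes from 0.03 to 0.27 without ABX and from 0.02 to 0.37 with ABX. The members' own median turned from -0.14 to 0.10 and from -0.20 to 0.13, below that of all genes under either scale. The share of rises among all called genes then went from 52.5% to 69.7% and from 51.6% to 76.8%, and among called members from 40.6% to 46.9% and from 40% to 50%. In 9 members 2 intervals could be tested separately. They had the same direction in 7 members without ABX and 8 with ABX, and both were called in 4 members in each comparison.

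**Figure D2:**
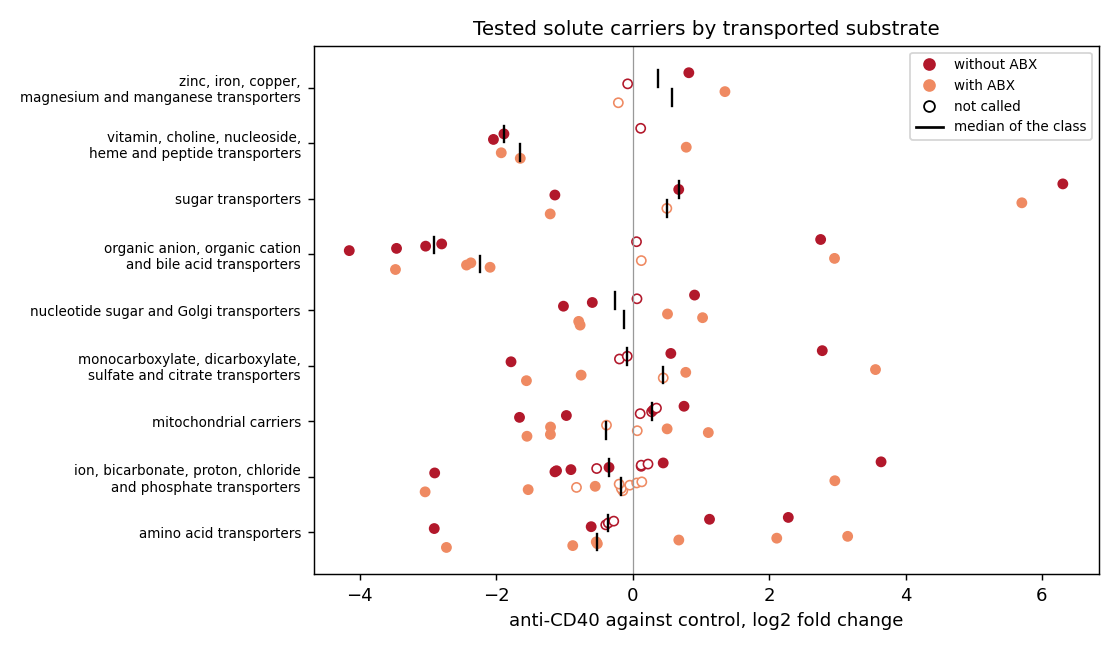
Log2 fold change of anti-CD40 against control for the tested members of each substrate class, without ABX and with ABX on separate lines, with filled points for called members and vertical bars at the class median. The organic ion carriers have medians of -2.92 and -2.23, and those of the other classes lie between -1.89 and 0.68.

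The sugar carriers held the largest single rise. Slc2a6 belongs to the facilitative hexose transporters and sits in lysosomal membranes of macrophages. It stood at 0.699, 2.1005, 3.67, 1.63 and 0.337 CPM in control mice without ABX and at 0.802, 1.63, 0.744, 1.24 and 3.32 CPM in control mice with ABX. With anti-CD40, Slc2a6 stood at 145, 133, 197, 99.6 and 90.3 CPM without ABX and at 96.97, 94.5, 78.1, 58.1 and 76.4 CPM with ABX. Every anti-CD40 mouse was far above every control mouse, and the lowest of the 10 anti-CD40 livers came from mouse 14. The log2 fold change was 6.31 ± 0.37 (SE, adjusted p = 4.85e-11) without ABX and 5.71 ± 0.38 (SE, adjusted p = 4.46e-10) with ABX. With plate column as a term it was 7.12 and 6.72. Of the counted intervals, 1287 bp lie over Slc2a6 exons, 40.1% of its exon length, and 535 bp in the bodies of Adamts13 and Cacfd1.

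Slc2a9, the urate carrier of the same family, went the other way. It read 26.1, 22.1, 22.7, 29.99 and 27.3 CPM in control mice and 35.8, 39.9, 36.3, 42.4 and 32.8 CPM in control mice with ABX, against 10.9, 11.3, 9.73, 13.5 and 12.8 and 16.9, 15.98, 11.9, 19.9 and 16.2 CPM under anti-CD40 without and with ABX. Each anti-CD40 group lay wholly below its controls, with log2 fold changes of -1.14 ± 0.13 (SE, adjusted p = 4.67e-08) and -1.21 ± 0.12 (SE, adjusted p = 1.21e-08). Slc45a4, of a family of proton-coupled sugar carriers, rose without ABX by 0.68 ± 0.25 (SE, adjusted p = 0.0249), a call that was lost without mouse 9, 10, 16 or 17 and when plate column entered the fit. With ABX its change was 0.50 ± 0.26 (SE, adjusted p = 0.108). Its interval also covers 1641 bp of the body of Dennd3.

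Carriers of carboxylates and inorganic anions split by gene. Slc13a5 imports citrate with sodium across the plasma membrane and is a known hepatocyte gene. Its levels were 0.559, 0.646, 5.498, 0.594 and 0.337 CPM in control mice and 0.321, 0.361, 0.744, 0.5303 and 0.184 CPM in control mice with ABX. With anti-CD40, Slc13a5 reached 12.4, 7.55, 10.2, 10.7 and 11.03 CPM without ABX and 3.97, 4.59, 7.23, 6.62 and 3.704 CPM with ABX. All 10 anti-CD40 mice were above 9 of the 10 control mice; control mouse 8, at 5.50 CPM, overlapped only the group with ABX. Slc13a5 rose by 2.78 ± 0.46 (SE, adjusted p = 2.1e-05) on the log2 scale without ABX and by 3.56 ± 0.60 (SE, adjusted p = 3.67e-05) with ABX. Without mouse 8 the first value was 4.21, and with the plate column in the fit the values were 4.65 and 5.71.

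Slc26a6, an exchanger of chloride, bicarbonate and oxalate, rose by 0.56 ± 0.16 (SE, adjusted p = 0.00339) and 0.78 ± 0.16 (SE, adjusted p = 0.000253), the first lost with plate column as a term. Of its 2 intervals, tested separately, only the longer was called, and in both comparisons. Slc26a11, an anion carrier, was called lower with ABX and not without ABX, at -0.76 ± 0.32 (SE, adjusted p = 0.0495). That call was kept only when the mouse left out was 1, 2, 6, 7, 9, 10 or 15, and its sign turned when plate column entered the fit (0.42). The sulfate carrier Slc13a4 changed by -0.19 ± 0.26 (SE, adjusted p = 0.542) and 0.45 ± 0.29 (SE, adjusted p = 0.206), neither past the threshold.

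Among carriers of organic ions, 4 of 6 tested members fell and 1 rose in each anti-CD40 comparison. Slc22a28, a rodent organic anion transporter, stood at 54.8, 40.2, 14.3, 39.2 and 45.5 CPM in control mice and at 52.8, 63.2, 63.1, 49.1 and 65.7 CPM in control mice with ABX. With anti-CD40, Slc22a28 was at 2.47, 2.43, 1.65, 3.25 and 0.946 CPM without ABX and 5.59, 7.82, 2.83, 5.24 and 4.94 CPM with ABX. Mouse 8 was the lowest control and still above all anti-CD40 mice. The log2 fold changes were -4.16 ± 0.34 (SE, adjusted p = 3.44e-09) and -3.48 ± 0.30 (SE, adjusted p = 8.72e-09), and without mouse 8 the first was -4.37. Its counts come from 2 intervals tested separately, and both fell in both comparisons.

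Slc22a27 had lower counts and also fell in both comparisons. It had 7.13, 6.14, 8.16, 6.38 and 5.22 CPM in control mice and 4.17, 5.06, 7.998, 7.78 and 6.64 CPM in control mice with ABX. Anti-CD40 mice had 0.9899, 0.512, 0.3298, 0.309 and 0.788 CPM of Slc22a27 without ABX and 1.44, 2.04, 1.57, 1.54 and 0.772 CPM with ABX. No anti-CD40 value reached any control value. The changes were -3.46 ± 0.31 (SE, adjusted p = 8.17e-10) and -2.09 ± 0.27 (SE, adjusted p = 5.23e-07), and -2.53 and -1.79 with plate column as a term. Slc22a30 ranged over 50.99 to 116 and 114 to 145 CPM in control mice and 9.22 to 15.9 and 18.4 to 28.2 CPM in anti-CD40 mice, with changes of -2.80 ± 0.18 (SE, adjusted p = 2.69e-11) and -2.37 ± 0.18 (SE, adjusted p = 2.45e-10). Because of the shared sequence shown above, fragments of Slc22a30 may be among the counts of Slc22a28, and those of Slc22a29 among the counts of Slc22a27. The counted part of Slc22a30, 422 bp, is 80.9% identical to its closest relative in the family, Slc22a27.

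Slc47a1 exports organic cations in exchange for protons into bile and urine. It was counted over 12 exonic parts, 1315 bp or 38.87% of its exon length. Its levels were 206, 224, 110.5, 213 and 209 CPM in control mice and 189, 171, 186, 183 and 181 CPM in control mice with ABX. Under anti-CD40, Slc47a1 was at 26.1, 19.97, 15.2, 24.6 and 31.7 CPM without ABX and 27.9, 31.6, 31.6, 40.2 and 36.6 CPM with ABX. Mouse 8 had the lowest control value, and it was still above every anti-CD40 mouse. Slc47a1 changed by -3.04 ± 0.18 (SE, adjusted p = 9.22e-12) and -2.44 ± 0.18 (SE, adjusted p = 2.6e-10) on the log2 scale, and the 2 of its 3 intervals that could be tested were called lower in both comparisons. Slco2a1, which takes up prostaglandins, was the riser of this class. It ranged over 1.4996 to 5.22 and 3.005 to 6.88 CPM in control mice and 16.2 to 31.5 and 27.9 to 42.5 CPM in anti-CD40 mice, and rose by 2.76 ± 0.27 (SE, adjusted p = 1.47e-08) and 2.96 ± 0.26 (SE, adjusted p = 3.47e-09). Slc10a7, a relative of the bile acid carriers, did not pass the test in either (0.06 ± 0.25 and 0.13 ± 0.24).

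**Figure D3:**
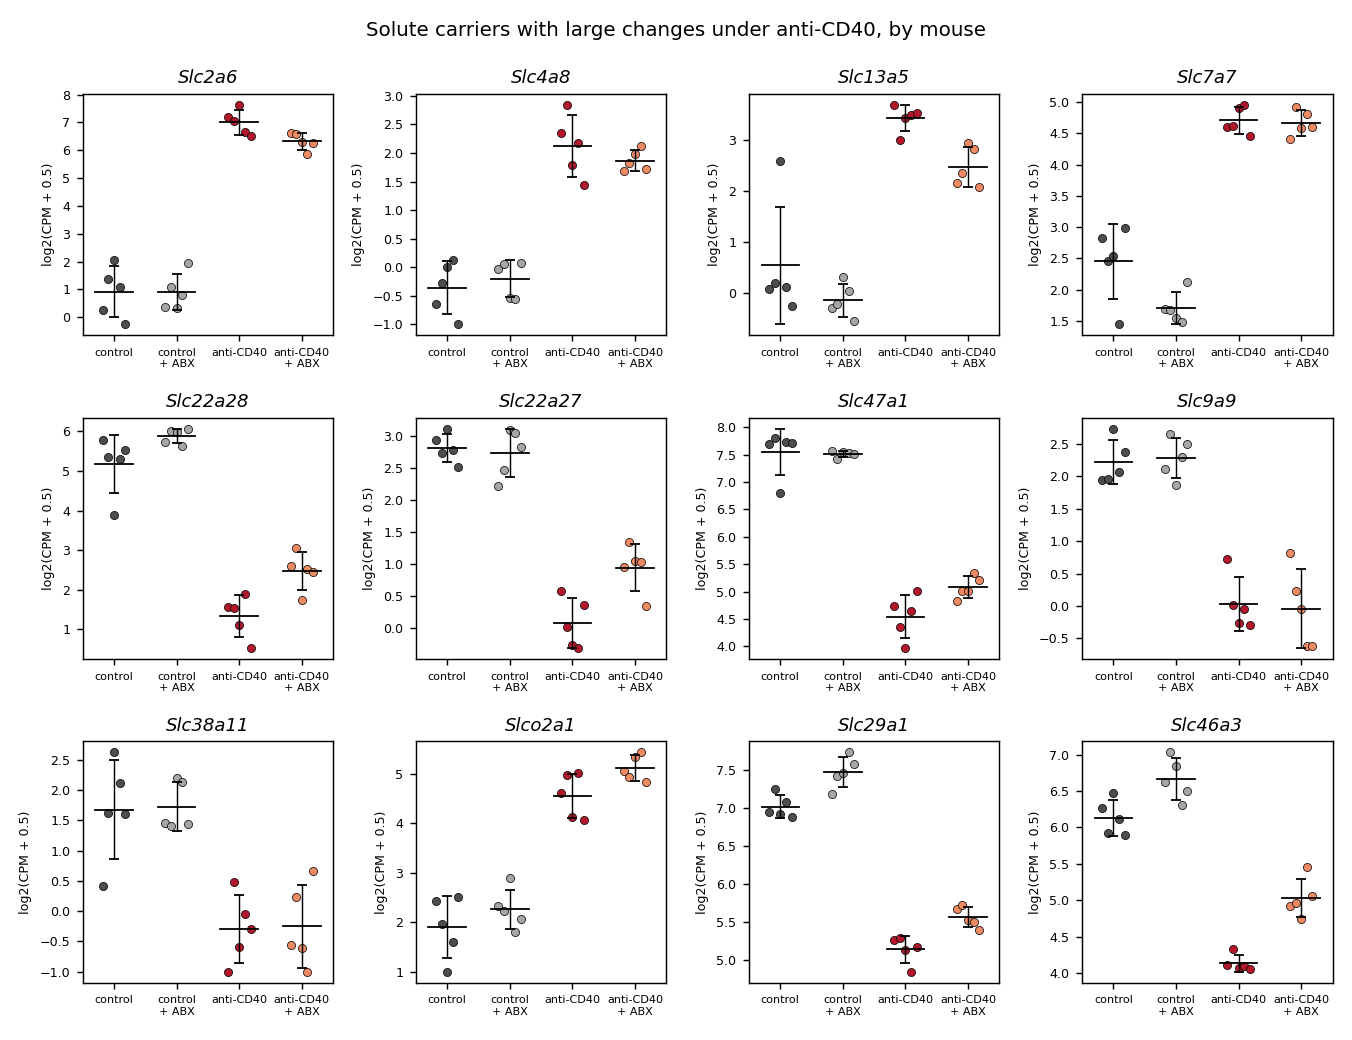
Level of 12 solute carriers in each mouse, as log2(CPM + 0.5), by group, with horizontal lines at the group mean and bars of 1 SD (n = 5). Control and anti-CD40 mice do not overlap in most panels; the control mouse with high Slc13a5 and low Slc47a1 and Slc22a28 is mouse 8.

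Amino acid carriers rose and fell within the class, with 2 higher and 2 lower of 7 without ABX and 3 higher and 4 lower with ABX. Slc7a7 is the light chain of an exchanger of cationic and neutral amino acids. It stood at 6.57, 5.01, 5.33, 2.23 and 7.41 CPM in control mice and 2.73, 2.71, 2.42, 2.298 and 3.87 CPM in control mice with ABX, and every anti-CD40 mouse was higher. With anti-CD40, Slc7a7 was at 23.8, 23.9, 29.5, 30.5 and 21.4 CPM without ABX and 20.7, 29.9, 23.4, 27.4 and 23.8 CPM with ABX. The rise was 2.28 ± 0.20 (SE, adjusted p = 4.1e-10) and 3.15 ± 0.22 (SE, adjusted p = 1.01e-11). Slc7a2, an arginine and lysine importer, changed by -0.61 ± 0.19 (SE, adjusted p = 0.00861) and -0.88 ± 0.19 (SE, adjusted p = 0.000554), a first value that was not called once plate column entered the fit, nor when mice 14, 15, 19 and 20 were all left out.

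Slc38a11, an orphan of the sodium-coupled amino acid carriers, was low throughout. It read 0.838, 2.59, 5.67, 3.86 and 2.53 CPM in control mice and 2.25, 2.17, 4.09, 3.89 and 2.21 CPM in control mice with ABX. Anti-CD40 mice read 0, 0.896, 0.165, 0.464 and 0.315 CPM for Slc38a11 without ABX and 0.1802, 0.6799, 0.157, 0 and 1.08 CPM with ABX. Mice 6 and 17 overlapped by a small margin, and the groups with ABX did not overlap. The changes were -2.91 ± 0.59 (SE, adjusted p = 0.000163) and -2.73 ± 0.60 (SE, adjusted p = 0.000466). At so few counts they moved to -3.57 without mouse 17, -3.46 without mouse 15 and -7.32 when plate column entered the fit.

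The exchangers of large neutral amino acids differed from each other. Slc43a1 rose by 1.13 ± 0.39 (SE, adjusted p = 0.0149) without ABX and by 2.11 ± 0.51 (SE, adjusted p = 0.00115) with ABX, while Slc43a2 was called lower with ABX and not without ABX (-0.52 ± 0.19, adjusted p = 0.0252). Slc43a1 ranged over 0.9997 to 2.67 and 0 to 1.24 CPM in control mice and 2.32 to 4.95 and 1.23 to 3.61 CPM in anti-CD40 mice. Its change with ABX was 2.76 without mouse 4, and both of its calls were lost with the column term (0.67 and 1.29). Of the Slc43a1 interval's bases, 2.9% lie over its exons, and 879 bp lie in the bodies of Rtn4rl2 and Smtnl1. The Slc43a2 call was lost without mouse 2, 3, 13 or 15, with library totals as the scale and when plate column entered the fit (-0.33, adjusted p = 0.515). Slc38a9, the lysosomal arginine sensor of the mTORC1 pathway, was called lower with ABX (-0.53 ± 0.20, adjusted p = 0.0305), and not without mouse 3, 4, 5, 12, 14 or 15, with library totals, without mice 14, 15, 19 and 20 together, or with the column term (-0.51, adjusted p = 0.263). Neither of its 2 intervals was called with ABX when tested separately (adjusted p = 0.108 and 0.207). Without ABX, where the gene was not called, 1 interval was called lower (-1.02 ± 0.37, adjusted p = 0.0198). The other interval was not (-0.08 ± 0.26, adjusted p = 0.801).

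In the class of ion, pH and phosphate carriers, 2 members were called higher and 5 lower of 11 without ABX, and 1 higher and 3 lower with ABX. Slc4a8 exchanges sodium and bicarbonate for chloride. It stood at 0.1397, 0.323, 0.4999, 0.594 and 0 CPM in control mice and 0.481, 0.542, 0.186, 0.177 and 0.553 CPM in control mice with ABX. With anti-CD40, Slc4a8 was at 4.62, 6.66, 2.97, 4.02 and 2.21 CPM without ABX and 2.704, 3.06, 3.46, 3.85 and 2.78 CPM with ABX. Every anti-CD40 value exceeded every control value, and the changes were 3.64 ± 0.43 (SE, adjusted p = 1.02e-07) and 2.96 ± 0.44 (SE, adjusted p = 3.74e-06). Slc4a8 passed the filter through the anti-CD40 groups, so the separation and the p-values are limited in what they can show.

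Slc9a9 is a sodium-proton exchanger of endosomes. Control mice had 3.35, 3.39, 6.16, 3.71 and 4.72 CPM of it without ABX and 3.85, 5.78, 3.16, 4.42 and 5.17 CPM with ABX. Anti-CD40 mice had 1.15, 0.512, 0.3298, 0.464 and 0.315 CPM of Slc9a9 without ABX and 1.26, 0.6799, 0.471, 0.154 and 0.154 CPM with ABX, below all controls. It changed by -2.90 ± 0.39 (SE, adjusted p = 7.51e-07) and -3.04 ± 0.40 (SE, adjusted p = 6.3e-07), and by -1.85 without ABX when plate column entered the fit. The phosphate carriers Slc20a2 and Slc17a4 fell in both comparisons. Slc20a2 changed by -0.35 ± 0.08 (SE, adjusted p = 0.000753) and -0.55 ± 0.08 (SE, adjusted p = 3.92e-06). Of its intervals, one with 19184 counts was called lower in both. Another with 151 counts was called in neither (0.30 ± 0.35 and -0.13 ± 0.41). Slc17a4 changed by -1.12 ± 0.23 (SE, adjusted p = 0.000245) and -1.53 ± 0.23 (SE, adjusted p = 3.96e-06), and its intervals cover 2537 bp of the body of its neighbour Slc17a1. Without ABX, the Slc17a4 call was lost when plate column entered the fit (-0.51, adjusted p = 0.366), and that of Slc20a2 with library totals as the scale. The phosphate carrier Slc34a2 and the potassium-chloride cotransporter Slc12a7 were called lower without ABX and not with ABX, and the difference between the effects was called for Slc12a7 but not for Slc34a2 (adjusted p = 0.111). The symbols Slc9a3r1 and Slc4a1ap name a scaffold and an adaptor that bind carriers and are not carriers themselves. Slc9a3r1 was called higher without ABX (0.45 ± 0.09, adjusted p = 0.00024), but only 1.8% of its intervals' bases lie over its exons and 2744 bp lie in other genes, and the call was lost when plate column entered the fit (adjusted p = 0.0643). Slc4a1ap, Slc4a1, the anion exchanger of red cells, and the sodium-calcium exchangers Slc8a1 and Slc8a3 were called in neither comparison.

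The SLC25 carriers showed modest changes. The oxodicarboxylate carrier Slc25a21 changed by -1.66 ± 0.19 (SE, adjusted p = 4.48e-08) and -1.55 ± 0.18 (SE, adjusted p = 1.23e-07), and the 2 of its 3 intervals that could be tested were called lower in both comparisons. Slc25a22, a glutamate carrier, fell from 539 ± 124 to 275 ± 85.3 CPM (mean ± SD, n = 5) without ABX and from 441 ± 124 to 191 ± 27.1 CPM with ABX. Its log2 fold changes were -0.97 ± 0.22 (SE, adjusted p = 0.000787) and -1.21 ± 0.22 (SE, adjusted p = 0.000129), the first lost with plate column as a term. Slc25a12, the aspartate-glutamate carrier, was called higher by 0.30 ± 0.11 (SE, adjusted p = 0.0229) and 0.50 ± 0.12 (SE, adjusted p = 0.00069). Only 0.9% of its interval lies over its exons and 7650 bp lie in the body of Hat1, and the first call was lost without mouse 6, 10, 16 or 20, with no filter and without mice 14, 15, 19 and 20. Neither Slc25a12 call was kept when plate column entered the fit (0.40 and 0.46, adjusted p = 0.178 and 0.0988). Slc25a27 was called lower with ABX and not without ABX (-1.20 ± 0.34, adjusted p = 0.00448), and that call was lost with plate column as a term.

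Among the SLC35 carriers, Slc35b3, which brings the sulfate donor PAPS into the Golgi, rose by 0.91 ± 0.15 (SE, adjusted p = 2.16e-05) and 0.51 ± 0.16 (SE, adjusted p = 0.00969), the second lost with plate column as a term. Slc35a3, which carries UDP-N-acetylglucosamine, changed by -1.02 ± 0.14 (SE, adjusted p = 7.68e-07) and -0.77 ± 0.14 (SE, adjusted p = 3.58e-05). Slc35g1 changed by -0.59 ± 0.14 (SE, adjusted p = 0.00087) and -0.79 ± 0.14 (SE, adjusted p = 5.06e-05), in both of its intervals.

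The nucleoside carrier Slc29a1 fell in both comparisons. Control mice had 123, 152, 120.3, 134 and 118 CPM without ABX and 145, 170.0, 175, 212 and 191 CPM with ABX. Anti-CD40 mice had 37.9, 38.5, 34.5, 28.3 and 35.5 CPM of Slc29a1 and, with ABX, 50.3, 52.4, 45.7, 44.8 and 41.5 CPM. The groups were far apart, and the changes were -1.89 ± 0.10 (SE, adjusted p = 1.64e-13) and -1.93 ± 0.10 (SE, adjusted p = 1.11e-13). Slc46a3, a lysosomal membrane carrier, had 76.7, 59.9, 88.3, 68.6 and 58.8 CPM in control mice and 98.5, 130.1, 114, 78.5 and 89.9 CPM in control mice with ABX. Anti-CD40 mice had 16.8, 19.6, 16.3, 16.5 and 16.1 CPM of Slc46a3 without ABX and 29.7, 30.6, 26.4, 43.3 and 32.9 CPM with ABX, with no overlap. It changed by -2.04 ± 0.15 (SE, adjusted p = 3.34e-11) and -1.65 ± 0.14 (SE, adjusted p = 8.25e-10). Of the metal carriers, the magnesium carrier Slc41a2 rose by 0.82 ± 0.25 (SE, adjusted p = 0.00765) and 1.35 ± 0.25 (SE, adjusted p = 0.000158). Control mouse 8 had 41.3 CPM of it against 13.3 to 23.8 in its group, and without that mouse the first value was 1.16. That call was lost when plate column entered the fit, and when mice 14, 15, 19 and 20 were all left out. The zinc importer Slc39a10 changed by -0.07 ± 0.20 and -0.21 ± 0.21, not past the threshold.

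Other transporters were measured alongside. Of 6 tested ABC transporters, 3 rose and 3 fell without ABX and 2 rose and 2 fell with ABX. Abcc6, an exporter of hepatocytes, changed by -1.74 ± 0.10 (adjusted p = 3.55e-13) and -1.49 ± 0.10 (adjusted p = 5.27e-12), and Abca9 by -2.74 ± 0.30 (adjusted p = 3.34e-08) and -2.73 ± 0.30 (adjusted p = 4.09e-08). Abcc12, picked after its values were seen as the largest change of the list, rose by 4.14 ± 0.57 (adjusted p = 1.12e-06) and 5.03 ± 0.58 (adjusted p = 8.35e-08), from means of 0.251 and 0.216 CPM in control mice to 4.79 and 7.61 CPM. Of 4 P-type ATPases, Atp13a3, a polyamine transporter, changed by -1.004 ± 0.09 (adjusted p = 1.35e-09) and -0.57 ± 0.09 (adjusted p = 1.2e-05). The single aquaporin, Aqp11, changed by -1.96 ± 0.44 (adjusted p = 0.00052) and -2.29 ± 0.53 (adjusted p = 0.000759). Of these genes, Abcc12 passed the filter on low counts through the anti-CD40 groups, and Abca9 and Aqp11 through the control groups. That limits what their folds and p-values can show. Mfsd6 rose by 0.58 ± 0.13 (adjusted p = 0.000578) and 0.80 ± 0.14 (adjusted p = 2.61e-05), and the heme carrier relative Flvcr2 rose with ABX by 1.09 ± 0.26 (adjusted p = 0.000861). The 2 measured V-type ATPase genes were not tested. Of 22 transcription factors known to set transporter levels in hepatocytes, 2 were measured. Both fell without ABX, Rxra at -0.64 ± 0.14 (adjusted p = 0.000396) and Foxa2 at -1.08 ± 0.29 (adjusted p = 0.00423), and neither was called with ABX.

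Markers of liver cell types moved with the same groups, and their part in the carriers' changes was not tested. Of 24 hepatocyte markers 6 were measured, and 5 fell and 1 rose in each anti-CD40 comparison. Their summed level was 225762 to 247252 CPM in control mice, 239841 to 319071 CPM in control mice with ABX, 73370 to 105810 CPM in anti-CD40 mice and 107961 to 141297 CPM with both. Cps1, the urea cycle enzyme, changed by -2.30 ± 0.11 (adjusted p = 9.13e-15) and -1.85 ± 0.11 (adjusted p = 3.24e-13), and Serpina1d by -1.05 ± 0.11 (adjusted p = 9.19e-09) and -1.30 ± 0.11 (adjusted p = 2.91e-10). Of 10 sinusoidal endothelial markers 5 were measured, of which 3 fell without ABX and 4 with ABX; their sum was 185 to 276 CPM over both control groups and 20.7 to 115 CPM over both anti-CD40 groups. Stab2 changed by -3.36 ± 0.31 (adjusted p = 2.5e-08) and -3.83 ± 0.33 (adjusted p = 7.67e-09), and Mrc1 by -5.63 ± 0.45 (adjusted p = 4.93e-10) and -4.76 ± 0.41 (adjusted p = 1.85e-09). Mrc1 passed the filter on low counts through the control groups, with means of 0.306 and 0.615 CPM under anti-CD40. That limits what its folds and p-values can show.

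Of 12 monocyte and macrophage markers 3 were measured. Ms4a7 rose by 2.25 ± 0.30 (adjusted p = 7.1e-07) and 2.08 ± 0.33 (adjusted p = 8.95e-06) and Adgre1 changed by -2.50 ± 0.38 (adjusted p = 1.63e-05) and -2.54 ± 0.39 (adjusted p = 2.27e-05), and the sum of the 3 was 106 to 240 CPM in control mice, 109 to 158 CPM with ABX, 245 to 971 CPM in anti-CD40 mice and 283 to 891 CPM with both. Most of that sum was the third gene, Lyz2, named after its values were seen. Its means were 123, 113, 612 and 547 CPM in the same order, and it rose by 2.32 ± 0.40 (adjusted p = 8.79e-05) and 2.28 ± 0.40 (adjusted p = 0.000129). The T cell genes Cd8a and Cd8b1, the measured 2 of 16 lymphocyte markers, rose by 2.52 ± 0.51 (adjusted p = 0.000159) and 2.70 ± 0.52 (adjusted p = 0.000102) without ABX and by 4.79 ± 0.69 (adjusted p = 2.6e-06) and 2.997 ± 0.56 (adjusted p = 7.79e-05) with ABX. Their sum was at most 1.19 CPM in control mice and at least 2.84 CPM in anti-CD40 mice. Both genes passed the filter on low counts through the anti-CD40 groups, which limits what their folds and p-values can show. Of 10 cholangiocyte markers, Sox9 rose by 3.05 ± 0.25 (adjusted p = 2.4e-10) and 2.43 ± 0.29 (adjusted p = 1.36e-07) and Pkhd1 fell without ABX, at -1.18 ± 0.34 (adjusted p = 0.00456). Marco, the measured 1 of 7 Kupffer cell markers, rose with ABX (1.72 ± 0.64, adjusted p = 0.0344), and Col3a1 and Lum, 2 of 12 stellate cell and fibroblast markers, fell with ABX (-2.29 ± 0.62, adjusted p = 0.00532, and -1.50 ± 0.53, adjusted p = 0.0198). Cd79b, 1 of 10 B cell markers, was called in neither. The adipose marker Cfd, 1 of 8, fell without ABX (-3.70 ± 0.92, adjusted p = 0.00206). No neutrophil marker of 12 was measured, and the 1 measured erythroid marker of 10, Rhag, was at 0.297 CPM or less.

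The question of whether ABX changed the response to anti-CD40 was put as the difference between the 2 effects. In 6 members the effects differed: the taurine carrier Slc6a6, the choline carrier Slc44a1, the peroxisomal cofactor carrier Slc25a17, the orphan Slc35e3 and the potassium-chloride cotransporter Slc12a7 had higher values with ABX, and the pyrimidine nucleotide carrier Slc25a36 a lower one. That is 5 higher and 1 lower of 48, where 4.36% and 3.18% of all genes were called higher and lower. The 2 effects share no library. None of the 6 was called with plate column as a term, where the SEs were larger and the differences were 1.23 ± 0.30 for Slc6a6, 0.81 ± 0.32 for Slc44a1, 1.38 ± 0.47 for Slc25a17, 0.86 ± 0.27 for Slc35e3, 0.77 ± 0.23 for Slc12a7 and -0.74 ± 0.48 for Slc25a36. Another 7 members were called in 1 anti-CD40 comparison and not in the other, and none of these was called in the difference (adjusted p from 0.0547 to 0.817).

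Slc6a6 stood at 33.7, 22.9, 27.5, 23.9 and 24.1 CPM in control mice, 26.8, 26.02, 19.9, 23.9 and 20.7 CPM in control mice with ABX, 19.1, 28.4, 16.8, 21.03 and 23.3 CPM in anti-CD40 mice and 40.9, 29.4, 37.2, 43.4 and 36.6 CPM in mice with both. The group with both treatments had the highest mean and lay above every mouse of the anti-CD40 group without ABX. The effect was -0.28 ± 0.14 without ABX and 0.68 ± 0.14 with ABX, a difference of 0.95 ± 0.20 (SE, adjusted p = 0.00525).

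Slc44a1 stood at 12.2, 14.1, 13.2, 11.6 and 15.7 CPM in control mice and 15.9, 13.01, 12.1, 11.3 and 7.57 CPM in control mice with ABX. In the anti-CD40 group, Slc44a1 had 12.9, 14.1, 13.7, 17.9 and 13.6 CPM, and with both treatments 20.01, 20.2, 19.8, 23.4 and 20.1 CPM. Mice with both treatments were above the other 15. The difference of 0.67 ± 0.21 (SE, adjusted p = 0.0468) was kept when the mouse left out was 1, 2, 9 or 19 and lost without any other (0.55 to 0.80). Of the Slc44a1 interval's bases, 2.4% lie over its exons.

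Slc25a17 stood at 5.31, 5.17, 6.33, 4.01 and 6.57 CPM in control mice, 3.85, 2.35, 2.23, 4.07 and 4.61 CPM in control mice with ABX, 4.62, 6.79, 6.43, 4.48 and 7.09 CPM in anti-CD40 mice and 7.39, 5.61, 8.01, 8.78 and 7.25 CPM in mice with both. Control mice with ABX were the lowest group. The difference was 0.999 ± 0.30 (SE, adjusted p = 0.0423) and was lost without any single mouse other than 1, 5, 9, 12, 17 or 20 (0.89 to 1.13). Of its interval, 448 bp lie in the body of St13.

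Slc35e3 stood at 17.2, 19.4, 20.2, 22.1 and 22.4 CPM in control mice, 11.1, 13.9, 10.97, 10.3 and 10.5 CPM in control mice with ABX, 21.1, 18.95, 16.5, 24.4 and 24.7 CPM in anti-CD40 mice and 19.5, 21.1, 26.4, 23.7 and 24.7 CPM in mice with both. Control mice with ABX were below all mice of the other 3 groups, which overlapped. The effect was 0.06 ± 0.12 without ABX and 1.02 ± 0.13 (SE, adjusted p = 3.78e-07) with ABX, a difference of 0.96 ± 0.18 (SE, adjusted p = 0.00276).

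Slc12a7 stood at 41.8, 55.3, 42.5, 47.2 and 44.6 CPM in control mice, 36.6, 28.4, 35.9, 30.9 and 32.7 CPM in control mice with ABX, 24.3, 26.5, 24.1, 25.4 and 23.2 CPM in anti-CD40 mice and 26.1, 33.3, 26.7, 33.7 and 26.5 CPM in mice with both. Control mice without ABX were the highest, with no overlap with the other groups. The effect was -0.91 ± 0.10 (SE, adjusted p = 4.23e-08) without ABX and -0.17 ± 0.10 (SE, adjusted p = 0.177) with ABX, and the difference was 0.74 ± 0.14 (SE, adjusted p = 0.00363).

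Slc25a36 stood at 8.803, 13.9, 14.2, 9.95 and 10.1 CPM in control mice, 27.1, 13.2, 9.11, 11.5 and 14.4 CPM in control mice with ABX, 15.7, 23.3, 24.1, 15.6 and 16.9 CPM in anti-CD40 mice and 10.8, 14.8, 12.7, 9.86 and 9.88 CPM in mice with both. It was highest in anti-CD40 mice without ABX, apart from control mouse 1. The difference was -1.14 ± 0.33 (SE, adjusted p = 0.038), and -0.80 and no longer called without mouse 1. The call was also lost without mouse 5, 6, 9, 10, 11, 13, 14, 15, 17 or 18, and with library totals as the scale.

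**Figure D4:**
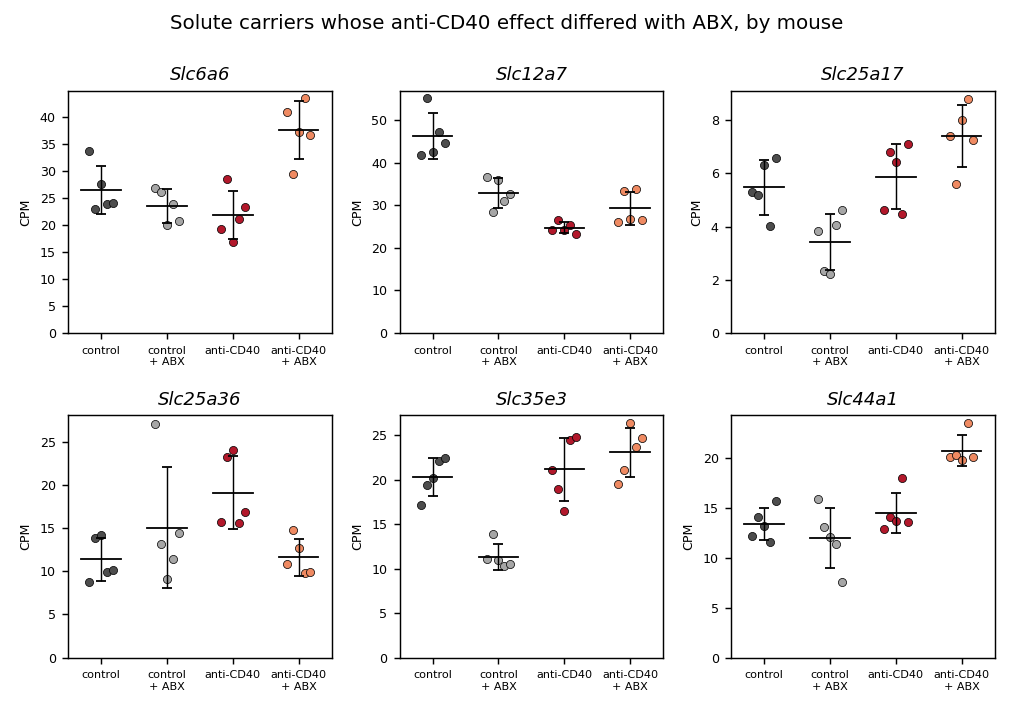
Level in CPM of the 6 solute carriers whose anti-CD40 effect differed with ABX, in each mouse by group, with horizontal lines at the group mean and bars of 1 SD (n = 5). The 5 mice with both treatments have the highest Slc44a1, 19.8 to 23.4 CPM, and the 5 control mice with ABX the lowest Slc35e3, 10.3 to 13.9 CPM.

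ABX alone, in control mice, changed fewer carriers. Among 48 members 4 were called higher and 6 lower, against 3.45% higher and 3.23% lower among all genes. The share of rises among these calls was 40%, and 20% with library totals as the scale, under which the median over all genes was -0.14 and not -0.01. The nucleoside carrier Slc29a1, the urate carrier Slc2a9 and the lysosomal Slc46a3, all lower after anti-CD40, were higher with ABX; the comparisons share these control libraries. Slc29a1 rose by 0.46 ± 0.10 (SE, adjusted p = 0.00714), Slc2a9 by 0.55 ± 0.12 (SE, adjusted p = 0.00808) and Slc46a3 by 0.54 ± 0.14 (SE, adjusted p = 0.0185). With library totals the Slc29a1 and Slc46a3 calls were lost, and that of Slc46a3 also without mouse 2, 3, 7 or 10. The mitochondrial carrier Slc25a27 rose by 1.26 ± 0.34 (SE, adjusted p = 0.0268), which was lost without mouse 3, 4, 5, 6, 8, 9 or 10. When plate column entered the fit, Slc25a27 (1.10), Slc46a3 (0.45) and Slc43a1, described next (-1.34), were not called, with adjusted p = 0.152, 0.144 and 0.269.

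The members lowered by ABX in control mice were Slc35e3 (-0.83 ± 0.13, adjusted p = 0.000617), Slc12a7 (-0.49 ± 0.10, adjusted p = 0.00524), Slc34a2, Slc13a4, Slc7a7 and Slc43a1. The phosphate carrier Slc34a2 stood at 9.78, 12.6, 7.498, 8.02 and 10.3 CPM in control mice and 4.97, 1.99, 7.63, 3.89 and 4.06 CPM with ABX, which overlap in 1 mouse of each group, and changed by -1.09 ± 0.26 (SE, adjusted p = 0.0131). With anti-CD40, Slc34a2 was at 4.78, 3.201, 2.97, 6.49 and 4.41 CPM without ABX and 4.51, 4.08, 4.56, 4.77 and 2.47 CPM with ABX, and its anti-CD40 change was -1.14 ± 0.26 (SE, adjusted p = 0.000582) without ABX, not called when plate column entered the fit (-0.93, adjusted p = 0.199), and -0.15 ± 0.28 (SE, adjusted p = 0.69) with ABX. Of the Slc34a2 interval's bases, 4.2% lie over its exons, and 657 bp lie in the bodies of other genes. Slc13a4 changed by -0.96 ± 0.28 (SE, adjusted p = 0.0394). Mouse 8 had 9.16 CPM of Slc13a4 against 3.21 to 3.72 in its group, and without mouse 8 the value was -0.56 and not called. The call was also lost without mouse 1, 3, 4, 5, 10 or 15. It was lost as well with no filter, with only the groups compared and without mice 14, 15, 19 and 20 together. Slc7a7 changed by -0.91 ± 0.24 (SE, adjusted p = 0.0253), lost without mouse 2, 3, 4, 6 or 10. Slc43a1 changed by -1.72 ± 0.52 (SE, adjusted p = 0.0477), a call kept only when the mouse left out was 4, 8, 11, 12, 13, 18 or 19, and its value was -2.36 without mouse 4.

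In anti-CD40 mice, ABX went with higher levels of several carriers that the antibody had lowered. Of 48 members 8 were called higher and 1 lower, against 8.68% and 7.23% of all genes. Slc22a27 was higher by 1.31 ± 0.37 (SE, adjusted p = 0.0178), Slc22a28 by 1.27 ± 0.40 (SE, adjusted p = 0.0352), Slc46a3 by 0.93 ± 0.15 (SE, adjusted p = 0.000231) and Slc22a30 by 0.90 ± 0.19 (SE, adjusted p = 0.00279). Slc6a6 was higher by 0.78 ± 0.14 (SE, adjusted p = 0.000502), Slc44a1 by 0.52 ± 0.14 (SE, adjusted p = 0.0146), Slc2a9 by 0.48 ± 0.13 (SE, adjusted p = 0.0161) and Slc29a1 by 0.42 ± 0.11 (SE, adjusted p = 0.00772), and Slc25a36 was lower by 0.72 ± 0.23 (SE, adjusted p = 0.036). Levels of Slc22a27, Slc22a28, Slc22a30, Slc46a3, Slc2a9 and Slc29a1 in mice with both treatments remained below those of every control mouse. None of these genes was called in the difference between the 2 anti-CD40 effects. Slc46a3, Slc2a9 and Slc29a1 were also called higher with ABX in control mice. Of the 6 measured hepatocyte markers, 2 were called higher in the same comparison, named after their values were seen, Cps1 by 0.64 ± 0.10 (adjusted p = 0.000212) and Alb, which encodes albumin, by 0.41 ± 0.13 (adjusted p = 0.0292); their part in the carriers' values was not tested. This comparison shares its libraries with the anti-CD40 comparisons above. With plate column as a term none of the 9 was called. The values were then 0.95 for Slc46a3, 0.97 for Slc6a6, 0.69 for Slc44a1, 0.57 for Slc2a9, 1.08 for Slc22a28, 0.73 for Slc22a30, 0.56 for Slc22a27, 0.31 for Slc29a1 and -0.43 for Slc25a36, with SEs of 0.19 to 0.75. In that fit, mouse 16 alone represents anti-CD40 without ABX in the column of the other group. Without mice 14, 15, 19 and 20 together, 3 of the 9 were called. The Slc22a28 call was lost without mouse 11, 12, 14, 15, 16, 17, 18 or 20, that of Slc2a9 without mouse 14 and that of Slc25a36 without mouse 11, 13, 14, 15, 17 or 18. The 2 intervals of Slc22a28 gave different values in this comparison. The one holding the part identical to Slc22a30 changed by 1.395 ± 0.39 (SE, adjusted p = 0.0197). The other changed by -0.08 ± 0.87 (SE, adjusted p = 0.963), an SE too wide to tell no change from a rise of that size. Its 191-bp exonic part is 96.9% identical to Slc22a30. The part of Slc22a30 fragments in either value was not tested.

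The 15 members that were not tested had 21 to 111 counts over all 20 libraries. They are Slc25a24 (111 counts), Slc6a4 (107), Slc7a15 (100), Slc26a3 (77), Slc5a1 (75), Slc12a8 (53), Slco4c1 (53), Slc1a2 (46), Slc9a7 (44), Slc9a4 (34), Slco4a1 (29), Slc25a53 (27), Slc23a3 (22), Slc13a1 (21) and Slc47a2 (21). They include the serotonin carrier Slc6a4, the intestinal and renal glucose importer Slc5a1 and the glutamate importer Slc1a2. All 77 counts of Slc26a3, a chloride-bicarbonate exchanger known from the colon, came from control mouse 1 (12.4 CPM), and the other 19 libraries had 0. Slc9a4, a sodium-proton exchanger known from the stomach, was at 4.81 CPM in mouse 1 and at 0.384 CPM or less elsewhere. Slc12a8 and Slco4c1 were also highest in mouse 1, at 3.37 and 2.89 CPM. The other genes held almost wholly by that library were Capn13, Dmbt1, Muc4 and Gal3st2.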

How the data were processed

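Liver RNA of 20 individual mice was sequenced in 4 groups of 5. Per the labels' protocols, snap-frozen liver was extracted with trizol. Per the submitters' processing notes, the tools were Trimmomatic 0.38, HISAT2 2.1.0 and featureCounts 1.5.0-p2, with mm10 as the build. Per the file headers, the authors made whole-number counts of fragments over exons of the human GRCh38 annotation, with no strand option; the deposited counts are not normalised. Human identifiers therefore name no gene here. Intervals were read as mm10 and intersected (bedtools 2.31.1) with GENCODE M21 exons, and those over exactly 1 gene by at least 50 bp were summed per mouse gene. These held 46.35% of counts; intervals over several genes held 52.34% and were left out. Antisense and near-identical genes cannot be separated.

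Counts were tested with edgeR 4.0.16 in R 4.3.3 (TMM, totals over all intervals as library sizes, filterByExpr, robust quasi-likelihood F-test, 1 fit of 20 libraries), with Benjamini-Hochberg adjustment over 2200 genes, and calls at an adjusted p under 0.05. The test was checked on simulated counts. P-values measure the spread between individual mice (biological coefficient of variation 16.7%). Sequence identity came from blastn 2.17.0. Alternatives were other scaling, DESeq2 1.42.0, no filter, plate column, other interval rules and left-out mice. Members, classes and gene lists were chosen with earlier results of these data known. Named with values were the 6 called members with the largest change each way and a mean of at least 1 CPM, all called in the difference, up to 4 members per class and up to 2 genes per other list by smallest p, of which some are not reported here.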

Additional observations from a re-analysis of the deposited data

Results flagged for a closer look

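Of 187 sets of 5 mice with a mean of at least 1 CPM, 16 had 1 mouse far from the other 4 by Dixon's criterion at the 95% level, which chance alone meets in about 1 of 20 sets. Mouse 8 was the one in 5 of them, all in control mice without ABX: Slc13a4 was at 9.16 CPM against 3.21 to 3.72 in the other mice, Slc13a5 at 5.498 CPM against 0.337 to 0.646, Slc17a4 at 7.998 CPM against 12.3 to 13.8, Slc43a2 at 37.8 CPM against 25.5 to 28.5 and Slc47a1 at 110.5 CPM against 206 to 224. In control mice with ABX, Slc26a3 was at 12.4 CPM in mouse 1 and at 0 in the other 4, Slc17a4 at 28.8 CPM against 14.5 to 18.4 and Slc35g1 at 221 CPM against 138 to 149 in mouse 4, Slc26a6 at 4.698 CPM against 7.06 to 7.81 and Slc35e3 at 13.9 CPM against 10.3 to 11.1 in mouse 2, and Slc7a7 at 3.87 CPM against 2.298 to 2.73 in mouse 5. In anti-CD40 mice without ABX, Slc44a1 was at 17.9 CPM against 12.9 to 14.1 in mouse 19 and Slc46a3 at 19.6 CPM against 16.1 to 16.8 in mouse 17. In anti-CD40 mice with ABX, Slc44a1 was at 23.4 CPM against 19.8 to 20.2 and Slc8a3 at 8.16 CPM against 2.34 to 4.01 in mouse 14, and Slc25a12 at 17.1 CPM against 18.2 to 18.5 in mouse 13.

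The anti-CD40 effect with ABX minus that without ABX passed the interaction test of edgeR for 6 members: 0.74 for Slc12a7, 0.999 for Slc25a17, -1.14 for Slc25a36, 0.96 for Slc35e3, 0.67 for Slc44a1 and 0.95 for Slc6a6, on the log2 scale. Adjusted p-values were 0.00363, 0.0423, 0.038, 0.00276, 0.0468 and 0.00525, in the same order.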

How the results depend on the processing

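Counts of members called higher and lower were recomputed with library totals as the scale, DESeq2, no low-count filter, plate column as a term, only the groups compared, wider and stricter assignment of intervals, each mouse left out and, chosen after seeing the data, without mice 14, 15, 19 and 20, which differed from their group mates on the second principal component. With plate column as a term, 21 members in place of 32 were called without ABX, 0 in place of 6 in the difference and 0 in place of 9 for ABX in anti-CD40 mice; all-gene counts went from 1333 to 735, 1133 to 690, 166 to 0, 147 to 77 and 350 to 5 over the 5 comparisons. Slc26a11 turned from -0.76 to 0.42 with ABX under that term, and was the only called value to change sign under any of these settings. For the difference, 3 members were called with no filter and 3 without mice 14, 15, 19 and 20, where all-gene counts were 79 for the difference and 170 for ABX in anti-CD40 mice, with 4 members. Leaving out 1 mouse gave 30 to 35 members without ABX, 32 to 35 with ABX, 3 to 6 for the difference, 5 to 11 for ABX in control mice and 6 to 12 for ABX in anti-CD40 mice, and over all genes 1262 to 1349, 1047 to 1154, 88 to 194, 89 to 157 and 225 to 380. The lowest counts of members came without mouse 6, 10, 11, 14 or 18 for the difference and without mouse 3 or 10 for ABX in control mice. Of the members called, 20 of 32 without ABX, 28 of 35 with ABX, 0 of 6 in the difference, 4 of 10 and 0 of 9 for ABX were called under every setting that tested them; the cause of these losses was not tested. DESeq2 called all 92. In 6 tested members at least 1 group had under 10 counts in every library: Slc4a8, Slc9a9, Slc13a5, Slc22a27, Slc38a11 and Slc43a1. They passed the filter through the groups where they were higher, which limits the precision of their folds and what their p-values can show. No paired analysis was possible because no mouse number is shared between groups.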
